A study of Mus musculus with 18 samples.

Results

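The 6 genes described here encode receptors for noradrenaline and adrenaline: *Adra1a*, *Adra1b* and *Adra1d* of the alpha1 class, *Adra2a* and *Adra2c* of the alpha2 class, and *Adrb1* of the beta class. They were chosen by name out of the 38561 genes counted in this mRNA sequencing series, and each symbol matched a single Ensembl identifier in the count files. All 6 also passed the low-count filter and were among the 17545 genes tested.

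Noradrenaline reaches the forebrain along the axons of the locus coeruleus and acts on G protein-coupled receptors. Alpha1 receptors couple to Gq, which activates phospholipase C and releases calcium, alpha2 receptors couple to Gi and Go, which inhibit adenylyl cyclase, and beta receptors couple to Gs, which stimulates adenylyl cyclase. In cortex these receptors are known for their part in arousal and attention, and in striatum *Adra2c* is the adrenergic receptor best known in the projection neurons.

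The study set mice that lack *Pcm1*, a centriolar satellite protein needed for normal cilia, beside their WT littermates. Both genotypes were adult mice of strain C57 Bl6J and of both sexes, and the labels name no treatment. The *Pcm1*-/- allele (KO in the labels) is a gene-trap insertion from embryonic stem cells of another strain, carried in the germ line and backcrossed to C57BL/6J. Frontal cortex, striatum and hippocampus came from 6 mice, 3 per genotype, which gave 18 libraries, and the animal was identified from the numbers that the count files carry.

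Counts on genes ranged from 24950537 to 33405081 per library, 86.8% to 89.2% of the reads counted. *Pcm1* itself measured 120 to 149 CPM (counts scaled to the size of the library) in WT frontal cortex and 12.2 CPM in all 3 mutant frontal cortex libraries, with 12.6 ± 0.732 CPM in mutant hippocampus and 16.7 ± 0.826 CPM in mutant striatum (SD, n = 3). Cortical and striatal markers were highest where the labels place them: 4 cortical layer genes summed to 493 to 540 CPM in frontal cortex and to 41.4 to 166 CPM elsewhere, and 6 striatal projection neuron genes to 6292 to 8144 CPM in striatum and to 121 to 269 CPM elsewhere. Hippocampal neuron genes separated less well, 5 of them summing to 342 to 445 CPM in hippocampus and to 359 CPM in mutant striatum replicate 1. Among the striatal libraries WT replicate 3 stood apart, with 5621 CPM of the choroid plexus transcript *Ttr* against 2.93 to 126 CPM in the other 5. *Ttr* also varied in the hippocampus, at 5837, 2163 and 1968 CPM in WT replicates 1 to 3 and 2177, 164 and 3836 CPM in mutant replicates 1 to 3. A list of 11 transcripts typical of thalamus was written after the hippocampal values of *Adra1b* and *Adra2b* were seen. In the hippocampus these summed to 957, 441 and 944 CPM in WT replicates 1 to 3 and to 256, 235 and 515 CPM in mutant replicates 1 to 3. All WT striatum libraries were sequenced in lane 5 and the mutant ones in lanes 3 and 4, which means that an effect of lane and one of genotype cannot be told apart there.

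On mouse genome GRCm38, *Adra1a* (ENSMUSG00000045875) lies at chr14:66635251-66771168 on the plus strand, *Adra1b* (ENSMUSG00000050541) at chr11:43774606-43901210 on the minus strand and *Adra1d* (ENSMUSG00000027335) at chr2:131545850-131562283 on the minus strand. *Adra2a* (ENSMUSG00000033717, chr19:54044151-54048982) and *Adrb1* (ENSMUSG00000035283, chr19:56722199-56733113) share a chromosome and the plus strand, and *Adra2c* (ENSMUSG00000045318) lies at chr5:35278319-35281763, also on the plus strand. All 6 are protein-coding. Exons of the antisense gene *Gm14285* overlap those of *Adra1d*, and since the strand setting of the counting is not given in the sources used here, reads from this overlap may have been credited to either gene. Over all libraries 300 reads were counted on *Gm14285* and 16980 on *Adra1d*.

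RefSeq promoter windows (GRCm38.p6, from 250 bases before to 50 after a start) were at hand for 4 of the 6 genes and are shown for the 3 that differed by genotype in a comparison below. *Adra1b* has a pair of starts, the first shown inside the gene and the next at its 5′ end. Capitals mark matches, on either strand, to the GC box GGGCGG, the E-box CACGTG and TGACG, the core of the cAMP response element.
Adra1b, chr11:43836440-43836739, minus strand: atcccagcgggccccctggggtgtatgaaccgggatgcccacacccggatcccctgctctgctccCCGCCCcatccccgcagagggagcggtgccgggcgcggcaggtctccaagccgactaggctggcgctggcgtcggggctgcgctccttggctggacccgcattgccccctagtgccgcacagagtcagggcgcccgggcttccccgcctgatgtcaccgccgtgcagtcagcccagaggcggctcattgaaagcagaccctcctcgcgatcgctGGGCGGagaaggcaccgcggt
Adra1b, chr11:43901188-43901487, minus strand: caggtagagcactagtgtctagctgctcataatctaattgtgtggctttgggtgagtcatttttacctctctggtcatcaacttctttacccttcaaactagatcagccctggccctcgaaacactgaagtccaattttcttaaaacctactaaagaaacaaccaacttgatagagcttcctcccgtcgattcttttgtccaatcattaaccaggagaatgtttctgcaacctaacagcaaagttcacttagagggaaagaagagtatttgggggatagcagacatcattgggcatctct
Adra2c, chr5:35278316-35278615, plus strand: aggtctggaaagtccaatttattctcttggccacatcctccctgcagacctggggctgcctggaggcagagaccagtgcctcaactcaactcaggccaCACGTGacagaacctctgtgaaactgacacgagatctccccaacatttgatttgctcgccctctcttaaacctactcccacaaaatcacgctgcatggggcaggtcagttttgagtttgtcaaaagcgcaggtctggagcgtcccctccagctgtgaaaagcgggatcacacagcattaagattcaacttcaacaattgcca
Adrb1, chr19:56721867-56722166, plus strand: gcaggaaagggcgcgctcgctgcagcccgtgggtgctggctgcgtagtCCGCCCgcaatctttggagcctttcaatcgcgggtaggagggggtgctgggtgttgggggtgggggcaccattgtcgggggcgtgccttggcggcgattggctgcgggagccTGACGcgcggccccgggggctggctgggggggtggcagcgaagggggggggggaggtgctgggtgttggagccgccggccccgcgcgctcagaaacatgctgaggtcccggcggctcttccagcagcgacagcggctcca
The GC box occurs in 35.7% of all 32851 promoter windows, TGACG in 20.8%, the E-box in 7.15%, the TATA box TATAAA in 13.6% and the full element TGACGTCA in 1.79%. The inner *Adra1b* window holds the GC box at 2 places, *Adrb1* holds the GC box and TGACG once each, and *Adra2c* holds the E-box alone. None of these windows holds TATAAA or TGACGTCA, and the 3 genes share no motif of this list. Bases G and C make up 71.3% of the inner *Adra1b* window and 72.3% of that of *Adrb1*, against 42.3% at the outer *Adra1b* start, 51.3% at *Adra2c* and a median of 52.7% over all windows.

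Where in the WT brain each receptor gene was transcribed came first, since the genotype effects are read against it. *Adra2c* was the striatal member, at 86.0, 80.6 and 64.9 CPM in the WT striatum libraries, 21.8, 20.6 and 22.8 CPM in frontal cortex and 17.7, 24.8 and 21.8 CPM in hippocampus. It was 3.54-fold higher in striatum than in frontal cortex (log2 difference 1.83 ± 0.12 SE, edgeR adjusted p = 6.65e-08). Every striatal library lay above every other library, also WT striatum replicate 3 with its choroid plexus transcripts, which was the lowest of the 3.

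*Adra1b* and *Adra1d* went the other way. *Adra1d* measured 45.9, 39.5 and 39.1 CPM in WT frontal cortex, 38.9, 50.3 and 44.0 CPM in hippocampus and only 0.882, 2.70 and 3.80 CPM in striatum. Its log2 difference between striatum and frontal cortex was −4.10 ± 0.34 (adjusted p = 4.66e-07), and cortex and hippocampus overlapped (0.09 ± 0.26, adjusted p = 0.803). *Adra1b* was a cortical transcript, at 41.6, 44.2 and 35.8 CPM in WT frontal cortex, with 14.2, 7.68 and 11.96 CPM in hippocampus and 2.79, 3.31 and 6.67 CPM in striatum. It was lower in striatum by −3.26 ± 0.30 and in hippocampus by −1.83 ± 0.27 on the log2 scale (edgeR adjusted p = 1.11e-06 and 0.000142). Its highest striatal value belonged to WT striatum replicate 3, where the thalamic list also stood highest of the striatal libraries, at 445 CPM against 222 to 258 CPM. The WT hippocampus libraries held 441 to 957 CPM of that list.

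*Adrb1* and *Adra1a*, which couple to Gs and to Gq, were also highest in cortex. *Adrb1* had 50.6, 46.0 and 48.7 CPM in WT frontal cortex, 23.5, 21.5 and 20.2 CPM in striatum and 15.1, 18.6 and 17.3 CPM in hippocampus. Both drops from cortex passed the test (−1.16 ± 0.09 in striatum, adjusted p = 2.32e-07, and −1.51 ± 0.09 in hippocampus, adjusted p = 7.34e-08). *Adra1a* ran from 17.1, 18.8 and 21.6 CPM in cortex through 10.7, 9.22 and 10.2 CPM in striatum to 6.24, 8.24 and 6.52 CPM in hippocampus, so that its 3 regions did not overlap. *Adra2a*, best known as the inhibitory autoreceptor of noradrenergic neurons and as a cortical postsynaptic receptor, was lower in striatum (5.04, 5.30 and 5.52 CPM) than in cortex (10.96, 9.74 and 12.5 CPM) by −1.07 ± 0.13 on the log2 scale (adjusted p = 1.65e-05). Its hippocampal libraries, at 11.2, 14.5 and 11.8 CPM, overlapped with the cortical ones (0.17 ± 0.12, edgeR adjusted p = 0.281).

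**Figure D1:**
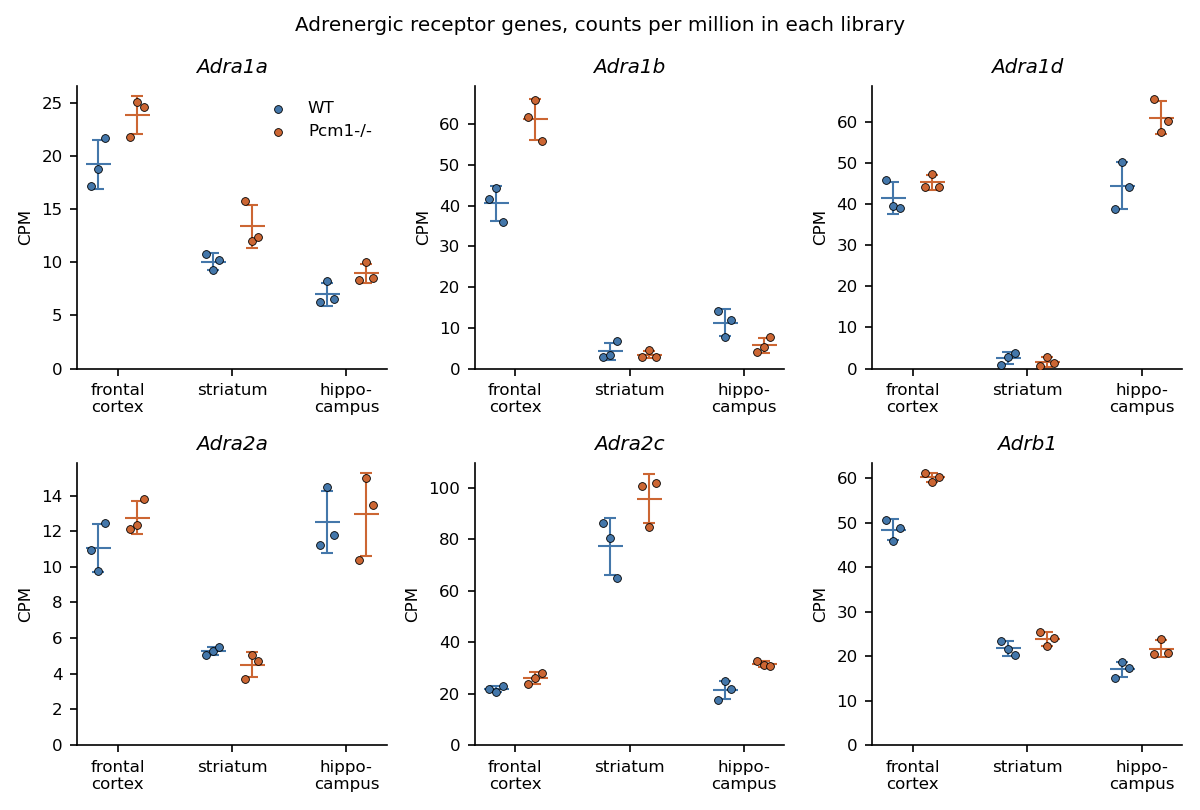
CPM (y axis, linear from 0) of the 6 genes in each of the 18 libraries, by region (x axis) and genotype. Points are libraries and bars the mean ± SD (n = 3). *Adra2c* was highest in striatum, *Adra1d* was near 0 there, and in frontal cortex the mutant points of *Adra1a*, *Adra1b*, *Adra2c* and *Adrb1* all lay above the WT points.

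In all, edgeR called 6 of the 6 genes different between WT striatum and WT frontal cortex, 5 of them lower, where 53.2% of all genes tested were called and 26.1% were lower. Between WT hippocampus and WT frontal cortex it called 3 (*Adra1a*, *Adra1b* and *Adrb1*, all lower), against 43.1% of all genes (22.1% lower), and between WT striatum and WT hippocampus it called 6, against 40.9%. Since so many genes differ between regions, these counts say little about the receptor family and the sizes say more. The median size of the striatum to cortex difference was 0.37 on the log2 scale over all genes, and the smallest among the 6 was −0.93 (*Adra1a*). For the hippocampus to cortex difference that median was 0.29, and *Adra1d* (0.09), *Adra2a* (0.17) and *Adra2c* (−0.02) lay below it in size. The call of *Adrb1* between WT striatum and WT hippocampus (0.35 ± 0.09, adjusted p = 0.00771) was lost without WT striatum replicate 1 (adjusted p = 0.0506) or WT hippocampus replicate 1 (0.0530).

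In *Pcm1*-/- mice 6 genes were called between striatum and frontal cortex (55.7% of all genes), 3 between hippocampus and frontal cortex (42.8%) and 4 between striatum and hippocampus (46.1%). *Adra2c* was 3.68-fold higher in mutant striatum than in mutant cortex, and *Adra1d* was lower there by −4.84 ± 0.36 on the log2 scale. The hippocampal deficit of *Adra1b* against cortex was −3.42 ± 0.29 in mutants beside −1.83 ± 0.27 in WT mice. The thalamic list summed to 235 to 515 CPM in mutant and 441 to 957 CPM in WT hippocampus, and its part in this was not tested. The values of *Adra1b* between mutant striatum and mutant hippocampus did not pass the test (−0.74 ± 0.33, edgeR adjusted p = 0.0855). Neither did those of *Adrb1*, at 0.14 ± 0.09 (edgeR adjusted p = 0.225) beside 0.35 in WT mice. The *Adra1b* comparison passed without WT striatum replicate 3 (adjusted p = 0.0309) or WT hippocampus replicate 2 (0.0253), both of which enter it only through the shared spread. *Adra2c* in mutant hippocampus against mutant cortex (0.28 ± 0.12, edgeR adjusted p = 0.0817) likewise passed without WT striatum replicate 3 (0.0371) or WT hippocampus replicates 1 (0.0470) or 2 (0.0196).

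Per kilobase of exon, where levels of different genes can be set side by side, *Adra1d* led in WT frontal cortex (21.8 ± 2.01 CPM per kb, SD, n = 3), followed by *Adrb1* (14.3 ± 0.688), *Adra1b* (11.99 ± 1.27) and *Adra2c* (6.31 ± 0.325), whose libraries did not overlap with those of the gene before. *Adra2a* (2.29 ± 0.282) and *Adra1a* (2.20 ± 0.262) came last and overlapped. *Adra2c* stood first in WT striatum at 22.4 ± 3.19 CPM per kb, *Adrb1* followed at 6.43 ± 0.484, and the 4 others overlapped between 0.465 and 2.00. In WT hippocampus *Adra1d* led again (23.4 ± 3.01), *Adra2c* (6.22 ± 1.04) and *Adrb1* (5.02 ± 0.521) overlapped, as did *Adra1b* (3.34 ± 0.981) and *Adra2a* (2.59 ± 0.361), and *Adra1a* was lowest (0.802 ± 0.124). Of the summed level of the 6 genes, the alpha1 class held 61.1% ± 2.03 in WT cortex, 11.2% ± 4.83 in WT striatum and 66.6% ± 1.33 in WT hippocampus (SD, n = 3), while the alpha2 class held 69.6% ± 4.80 in WT striatum. *Adra1a* has exons beyond its longest transcript, and divided by that transcript's length its level in WT cortex was 4.48 CPM per kb, above *Adra2a*.

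In mutant frontal cortex *Adra1b* (18.1 ± 1.48 CPM per kb) and *Adrb1* (17.8 ± 0.301) overlapped, although by the longest transcript *Adrb1* had the higher mean (20.4 against 18.4 CPM per kb), and in mutant hippocampus *Adra1b* (1.69 ± 0.547) overlapped again with *Adra2a* (2.68 ± 0.483). *Adra1d* held first place in mutant cortex (23.8 ± 0.964) and mutant hippocampus (32.1 ± 2.14), and *Adra2c* in mutant striatum (27.8 ± 2.80). Summed over the 6 genes, cortex had 57.3 to 62.0 CPM per kb in WT and 71.4 to 74.9 in mutant libraries, hippocampus 37.3 to 45.4 and 52.1 to 54.3, and striatum 31.1 to 35.5 and 36.4 to 40.6. Cell type markers that moved in the same libraries are given with the genotype comparisons, and their part in these sums was not tested.

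**Figure D2:**
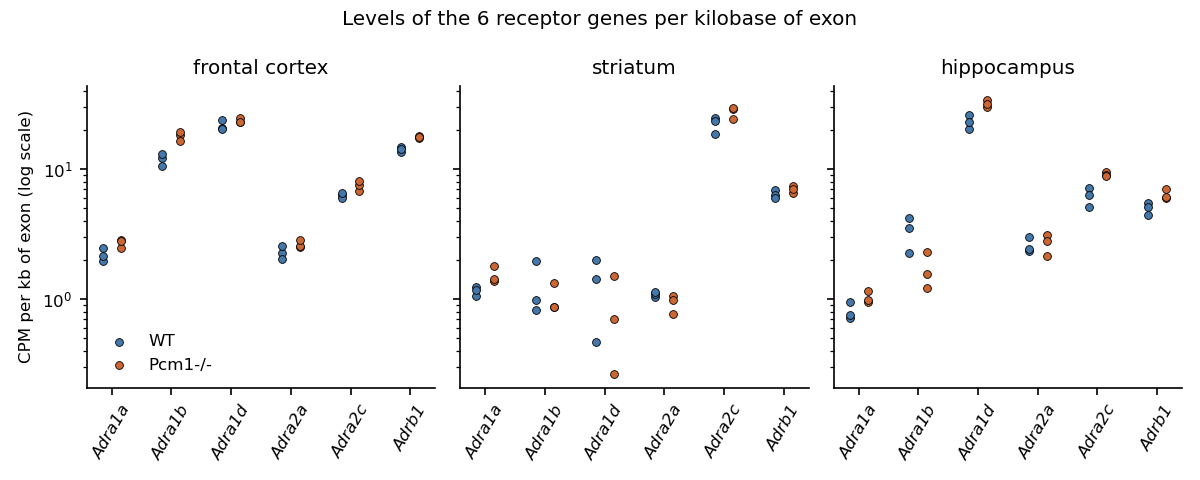
Level per kilobase of exon (y axis, log scale) of the 6 genes in each library, by region and genotype. *Adra1d* stood highest in frontal cortex and hippocampus and among the lowest in striatum, where *Adra2c* led at 18.8 to 24.98 CPM per kb in WT libraries.

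In the frontal cortex, the genotype comparison found *Adra1b* and *Adrb1* higher in *Pcm1*-/- mice. *Adra1b*, a Gq-coupled receptor, measured 61.7, 65.8 and 55.9 CPM in mutant replicates 1 to 3 and 41.6, 44.2 and 35.8 CPM in WT replicates 1 to 3. All mutant values lay above all WT values, and the rise was 1.5-fold (log2 fold change 0.59 ± 0.09 SE, edgeR adjusted p = 0.0195). *Adrb1*, the beta receptor of cortex, measured 61.1, 59.1 and 60.3 CPM in mutants and 50.6, 46.0 and 48.7 CPM in WT mice. Here too the groups did not overlap, and the rise was 1.24-fold (0.31 ± 0.05, adjusted p = 0.0363). These were 2 of the 6 genes, where 1.74% of all genes passed and 1.41% passed as rises. At an unadjusted p under 0.05 stood 4 of the 6 (15.3% of all genes), and DESeq2 called the same 2 (5.14% of its genes).

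The other 4 cortical differences had the same sign and did not pass the test after adjustment. *Adra1a* measured 21.8, 25.1 and 24.6 CPM in mutants against 17.1, 18.8 and 21.6 CPM (0.30 ± 0.10, adjusted p = 0.195), and *Adra2c* 23.5, 26.2 and 28.1 CPM against 21.8, 20.6 and 22.8 CPM (0.25 ± 0.08, edgeR adjusted p = 0.204). Neither gene overlapped between genotypes, which makes 4 of the 6 with every mutant library above every WT library, a pattern that 12% of all genes showed. *Adra2a*, at 12.1, 12.4 and 13.8 CPM against 10.96, 9.74 and 12.5 CPM, and *Adra1d*, at 44.2, 47.3 and 44.2 CPM against 45.9, 39.5 and 39.1 CPM, overlapped between genotypes. The median log2 fold change of the 6 was 0.28, beside −0.01 over all genes tested.

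Both calls depended on single libraries and on the model. With sequencing lane in the fit the adjusted p was 0.0751 for *Adra1b* and 0.0891 for *Adrb1*, and in 1 edgeR fit of all 18 libraries it was 0.403 and 0.0883, at log2 fold changes of 0.59 to 0.63 and 0.31 to 0.34. Without 1 library at a time the log2 fold change of *Adra1b* stayed between 0.51 and 0.66 and that of *Adrb1* between 0.28 and 0.34, but *Adra1b* no longer passed without WT frontal cortex replicate 1 (adjusted p = 0.0550), mutant replicate 1 (0.122) or mutant replicate 2 (0.0793). *Adrb1* passed without WT replicate 3 (adjusted p = 0.0247) and not without WT replicate 1 (0.0550), WT replicate 2 (0.106) or mutant replicates 1, 2 or 3 (0.195, 0.117 and 0.123). Without WT replicate 3, *Adra1a* passed as well (0.40 ± 0.09, edgeR adjusted p = 0.0434).

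Cell type markers also moved in this region. Of 6 striatal projection neuron genes, 4 had positive and 2 had negative fold changes in mutant cortex, and 2 were called higher. Their summed level was 187 to 209 CPM in WT and 241 to 269 CPM in mutant libraries. GABA interneuron genes had positive fold changes for 6 of 6, 1 of them called (766 to 959 against 958 to 1050 CPM). Microglial genes were lower in mutant cortex for 5 of 5 at an unadjusted p under 0.05, with a summed level of 298 to 400 CPM in WT and 256 to 290 CPM in mutant libraries. All 4 mural cell genes (115 to 144 against 106 to 111 CPM), 1 of them called, all 4 endothelial genes (133 to 188 against 121 to 128 CPM) and all 5 oligodendrocyte genes (1651 to 2182 against 1503 to 1594 CPM) had negative fold changes, and none of these markers was at 0 in a group. Of the 4 excitatory neuron genes 2 were called, 1 higher and 1 lower, and they summed to 7173 to 7937 CPM in WT and 6768 to 6956 CPM in mutant libraries. The higher one, *Slc17a7*, stood at 1918 to 1986 CPM in WT and 2282 to 2425 CPM in mutant cortex, and the lower one, *Camk2a*, at 5035 to 5782 and 4114 to 4428 CPM. The part of these shifts in the receptor differences was not tested, and in tissue RNA fewer cells of a type and less RNA per cell cannot be told apart.

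**Figure D3:**
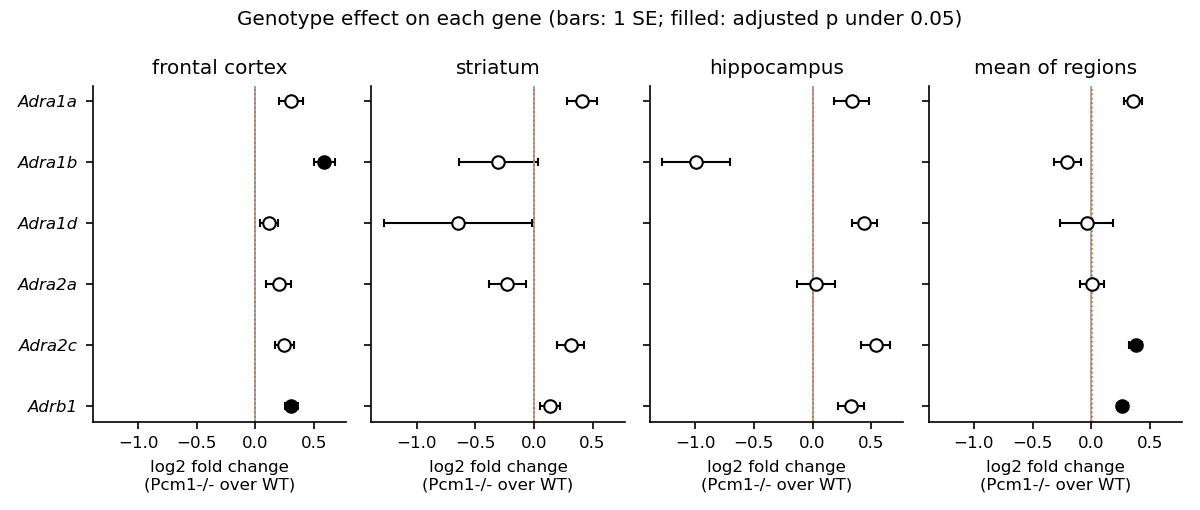
Log2 fold change of each gene in *Pcm1*-/- over WT mice (x axis) in the 3 regions (edgeR) and as the mean of the regions per animal (limma). Bars are 1 SE, filled points passed an adjusted p under 0.05, and the dotted line is the median of all genes. *Adra1a*, *Adra2c* and *Adrb1* lay right of 0 in every panel, and *Adra1b* lay right of 0 in frontal cortex (0.59) and left of it in hippocampus (−1.0).

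In the hippocampus, edgeR called 0 of the 6 genes (0.0171% of all genes), 4 of them had an unadjusted p under 0.05 (9.89% of all genes), and DESeq2 called 3 (1.77% of the genes it gave an adjusted p). *Adra2c* had the clearest shift, at 32.8, 31.1 and 30.6 CPM in mutants against 17.7, 24.8 and 21.8 CPM in WT mice, a log2 fold change of 0.54 ± 0.12 (edgeR adjusted p = 0.391, DESeq2 adjusted p = 0.0184). *Adra1d* measured 65.4, 57.4 and 60.1 CPM against 38.9, 50.3 and 44.0 CPM (0.44 ± 0.11, edgeR adjusted p = 0.391, DESeq2 adjusted p = 0.0281). *Adrb1* measured 20.4, 23.8 and 20.7 CPM against 15.1, 18.6 and 17.3 CPM (0.33 ± 0.11, edgeR adjusted p = 0.433). For these 3 genes and for *Adra1a* (8.32, 9.98 and 8.53 against 6.24, 8.24 and 6.52 CPM) every mutant library lay above every WT library, 4 of the 6 where 10.6% of all genes did so.

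*Adra1b* had the opposite sign in the same tissue. Its hippocampal libraries held 4.14, 5.24 and 7.75 CPM in mutants and 14.2, 7.68 and 11.96 CPM in WT mice, a log2 fold change of −1.0 ± 0.29 (edgeR adjusted p = 0.405, DESeq2 adjusted p = 0.0460). The groups touched: mutant replicate 3 lay just above WT replicate 2. The thalamic list was written after these *Adra1b* values were seen, so its match with them is no test. It put the 6 libraries in nearly the same order. For both measures WT replicates 1 and 3 were highest, WT replicate 2 and mutant replicate 3 between, and mutant replicates 1 and 2 lowest. Of the 11 transcripts of the list all 11 had a negative fold change in the mutant hippocampus, 8 at an unadjusted p under 0.05. *Tcf7l2*, a defining transcript of thalamus, measured 108, 48.3 and 106 CPM in WT replicates 1 to 3 and 6.77, 6.80 and 51.0 CPM in mutant replicates 1 to 3. Summed, the list stood at 957, 441 and 944 CPM in WT replicates 1 to 3 and at 256, 235 and 515 CPM in mutant replicates 1 to 3. What part of the *Adra1b* difference goes with these transcripts was not tested.

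The pyramidal neuron transcript *Slc17a7* had the opposite arrangement, with 1307, 1743 and 1316 CPM in WT hippocampus and 2004, 2212 and 1838 CPM in mutants. Among the WT libraries, replicate 2 was also highest for *Adra2c* (24.8 CPM) and *Adra1d* (50.3 CPM). The mutant libraries did not share an order: replicate 2, highest for *Slc17a7*, was lowest for *Adra1d* (57.4 CPM), and *Adra2c* was highest in replicate 1 (32.8 CPM). What part of their differences goes with *Slc17a7* was not tested either. The neuronal lists as a whole overlapped between genotypes, 4 excitatory neuron genes at 5434 to 7623 CPM in WT and 6531 to 8607 CPM in mutants, and 5 hippocampal neuron genes at 342 to 445 and 401 to 442 CPM with WT replicate 2 lowest. All 4 endothelial genes were lower in mutant hippocampus at an unadjusted p under 0.05 (113 to 160 against 93.7 to 104 CPM), and 5 of 5 microglial and 5 of 5 oligodendrocyte genes had negative fold changes, 1 of each list at that level. Leaving out 1 hippocampal library at a time moved *Adra2c* between 0.42 and 0.65, *Adra1d* between 0.36 and 0.53 and *Adra1b* between −1.30 and −0.80 on the log2 scale, and no such fit called any of the 6.

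**Figure D4:**
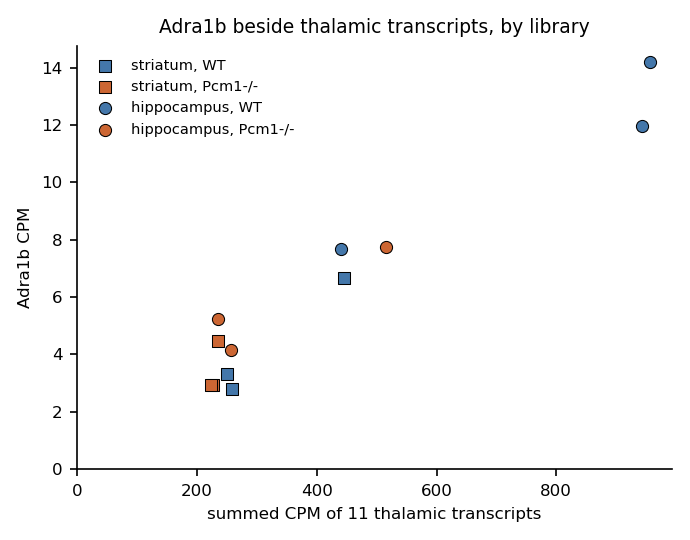
*Adra1b* (y axis, CPM) beside the summed level of 11 thalamic transcripts (x axis, CPM) in the 12 libraries of striatum and hippocampus. The list was written after the hippocampal *Adra1b* values were seen. WT hippocampus replicates 1 and 3 lay at the upper right, at 14.2 and 11.96 CPM of *Adra1b*, and WT striatum replicate 3 was the highest of the striatal libraries on both axes.

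In the striatum edgeR called 0 of the 6 genes (0.0285% of all genes), 2 had an unadjusted p under 0.05 (13.5% of all genes), and DESeq2 called 0 (3.84% of its genes). *Adra1a* measured 15.7, 12 and 12.4 CPM in mutants and 10.7, 9.22 and 10.2 CPM in WT mice (0.41 ± 0.13, edgeR adjusted p = 0.243), and it was the 1 member whose groups did not overlap, which 9.6% of all genes matched. *Adra2c*, the abundant striatal receptor, measured 101, 84.6 and 102 CPM in mutants against 86.0, 80.6 and 64.9 CPM (0.31 ± 0.11, edgeR adjusted p = 0.302). Its lowest value was again that of WT striatum replicate 3, and without that library the difference was 0.20. The 6 striatal projection neuron markers summed to 6292 to 7312 CPM in WT and 7541 to 8144 CPM in mutant libraries, with 6 of 6 fold changes positive, 5 of them at an unadjusted p under 0.05 and 0 called. In the same libraries 5 of 5 microglial genes (380 to 535 CPM in WT, 338 to 389 CPM in mutants) and 5 of 5 oligodendrocyte genes (7850 to 7960 against 4815 to 7700 CPM) had negative fold changes, 4 of each list at an unadjusted p under 0.05. The part of these differences in the *Adra2c* values was not tested.

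*Adra1b* and *Adra1d* were scarce in striatum and measured with little precision. *Adra1b* had 2.93, 4.46 and 2.93 CPM in mutants and 2.79, 3.31 and 6.67 CPM in WT mice (−0.30 ± 0.34), and the sign turned to 0.18 without WT striatum replicate 3. *Adra1d* had 0.5, 2.83 and 1.34 CPM against 0.882, 2.70 and 3.80 CPM (−0.65 ± 0.63), a value that came to −0.19 without WT striatum replicate 3 and to −1.42 without mutant striatum replicate 2. Between 14 and 109 reads per striatal library were counted on *Adra1d*, and its SE was the largest of the 6. *Adrb1* (25.3, 22.2 and 23.9 against 23.5, 21.5 and 20.2 CPM) and *Adra2a* (3.71, 5.06 and 4.74 against 5.04, 5.30 and 5.52 CPM) overlapped between genotypes.

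Averaging each animal's log2 CPM over its 3 regions gave 1 value per mouse and a comparison of 3 against 3 mice. *Adra2c* stood at 4.98, 5.01 and 5.13 log2 CPM in the WT mice and at 5.42, 5.36 and 5.47 in the mutants, 0.38 ± 0.06 higher (limma adjusted p = 0.0330). *Adrb1* stood at 4.67, 4.70 and 4.76 in WT mice and at 4.98, 4.98 and 4.96 in mutants, 0.27 ± 0.05 higher (limma adjusted p = 0.0431). In both genes every mutant mouse lay above every WT mouse. All 5 microglial, 4 endothelial and 5 oligodendrocyte markers had negative fold changes in each of the 3 regions, and their part in these means was not tested. These 2 of 6 passed where 1.62% of all genes did and 1.17% did as rises, and they rest on the same libraries as the regional results.

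*Adra1a*, at 3.33, 3.55 and 3.53 log2 CPM in WT mice and 3.83, 3.86 and 3.79 in mutants, was also separated by genotype and came just short of the threshold (0.36 ± 0.08, limma adjusted p = 0.0719). These are 3 of the 6 with every mutant mouse above every WT mouse, where 13.6% of all genes were so, and also the 3 at an unadjusted p under 0.05 (17.3% of all genes). *Adra2a* (0.00 ± 0.10), *Adra1d* (−0.04 ± 0.23) and *Adra1b* (−0.20 ± 0.11), whose regional differences were of unlike sign, did not pass. Without 1 mouse at a time *Adra2c* kept a difference of 0.35 to 0.42 and *Adrb1* one of 0.25 to 0.29. Both passed without the WT mouse of frontal cortex replicate 3 (limma adjusted p = 0.0244 and 0.0356), and neither passed without any of the other 5 mice (0.0729 to 0.219 for *Adra2c* and 0.0890 to 0.261 for *Adrb1*). From counts summed over each animal's regions, edgeR gave *Adra2c* 0.31 (adjusted p = 0.0643), which did not pass, and *Adrb1* an adjusted p of 0.0439. Averaged without striatum, a choice made after the data were seen, the differences were 0.40 (limma adjusted p = 0.0821) and 0.33 (0.0811), and without hippocampus 0.29 (0.168) and 0.23 (0.127).

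Whether the genotype effect differed between regions was tested as an interaction within animals, and edgeR called 0 of the 6 genes and 0 of all genes tested. At an unadjusted p under 0.05 stood 1 of the 6, *Adra1b*, and 1384 genes in all (7.89%), while DESeq2 called 155 genes (1.32%) and 0 of the 6. The genotype effect on *Adra1b* was lower in hippocampus than in frontal cortex by −1.59 and lower in striatum by −0.90 on the log2 scale (edgeR adjusted p = 0.312). Over all alternatives its adjusted p ranged from 0.0511 to 0.723. The other 5 genes had adjusted p between 0.716 and 0.983.

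Outside the 6 genes, *Adra2b* and *Adrb3* were not called in any genotype comparison. *Adra2b*, another Gi-coupled receptor, was highest in striatum, at 3.31 ± 0.199 CPM in WT and 3.33 ± 0.566 CPM in mutant libraries (SD, n = 3), with 1 to 5 reads per library in frontal cortex. In hippocampus it measured 1.85, 0.375 and 1.81 CPM in WT replicates 1 to 3 and 0.0987, 0.126 and 0.898 CPM in mutant replicates 1 to 3. The highest values were those of WT replicates 1 and 3 and mutant replicate 3, as in the thalamic list, which was written after these values were seen. *Adrb3*, a Gs-coupled receptor, was found mainly in frontal cortex (2.04 ± 0.238 CPM in WT, 2.38 ± 0.609 CPM in mutant libraries).

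Genes of the noradrenergic neurons themselves, whose cell bodies lie in the brainstem, were low. *Dbh*, which converts dopamine to noradrenaline, reached at most 1.32 CPM, in a mutant hippocampus library. *Slc6a2*, the noradrenaline transporter, had at most 1 read in any library and was not tested. *Th*, which makes the dopamine precursor and is also transcribed in dopamine neurons, ranged from 0.269 to 9.11 CPM and was highest in striatum. *Slc18a2*, the vesicular transporter of all monoamine neurons, measured 5.67 to 10.8 CPM, above *Th* in frontal cortex and hippocampus and below it in mutant striatum.

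Of 63 genes listed for noradrenaline turnover and for signalling below its receptors, all had an identifier in the files and 62 were tested. In frontal cortex 1 was called higher and 0 lower, a share like the 1.74% over all genes. It was *Kcnj3*, a potassium channel opened by G protein subunits downstream of Gi-coupled receptors. *Kcnj3* measured 178 to 201 CPM in WT and 237 to 253 CPM in mutant cortex (0.38 ± 0.06, edgeR adjusted p = 0.0240), with no overlap between genotypes. The median log2 fold change of the 62 genes in cortex was 0.01, with 36 positive and 26 negative, beside −0.01 over all genes.

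By role, the 8 adenylyl cyclase genes had a cortical median of 0.07 with 4 positive at an unadjusted p under 0.05 (15.3% of all genes in either direction), the 10 phospholipase C and calcium release genes −0.03, the 10 G protein subunit genes −0.02, and the 7 receptor kinase and arrestin genes −0.09 with 6 of 7 negative. None of these groups held a called gene in any region. In striatum and hippocampus edgeR called 0 of the 62, beside 0.0285% and 0.0171% of all genes, and 16 and 10 of them had an unadjusted p under 0.05, beside 13.5% and 9.89% of all genes. Medians there were 0.03 in both.

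Averaged over regions, limma called 2 of the 62, beside 1.62% of all genes. *Adcy3*, the adenylyl cyclase of neuronal cilia, was 0.28 ± 0.05 higher in mutants (adjusted p = 0.0403), with 43.0 to 49.9 CPM in WT and 55.1 to 56.0 CPM in mutant cortex. *Plcb4*, a phospholipase C that Gq activates, was lower by −0.55 ± 0.09 (limma adjusted p = 0.0393), and edgeR called it in no single region. It measured 61.5 to 101 CPM in WT and 26.8 to 51.6 CPM in mutant hippocampus, 40.6 to 66.4 and 28.5 to 41.2 CPM in striatum, where the groups overlapped, and 104 to 114 and 113 to 126 CPM in cortex. The thalamic transcripts of the hippocampal libraries and of WT striatum replicate 3, given above, were also higher in WT mice, and their part in its difference was not tested.

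**Figure D5:**
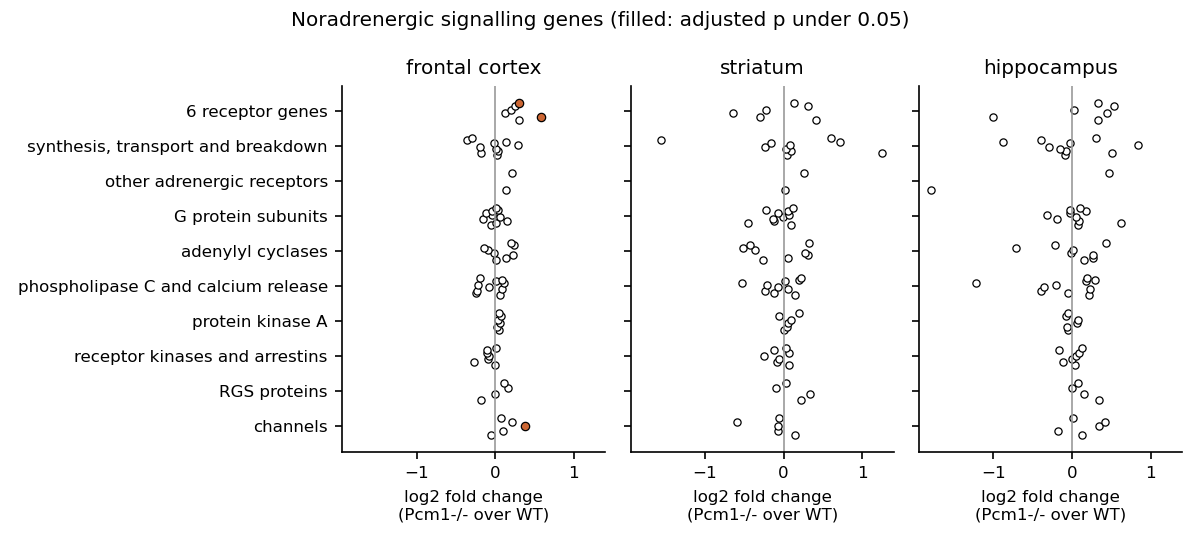
Log2 fold change in *Pcm1*-/- over WT mice (x axis) of the 6 receptor genes and of 62 genes of noradrenaline turnover and receptor signalling, by role (rows) and region (panels). Each point is a gene, and filled points passed an adjusted p under 0.05 (edgeR), which 3 genes did, all of them in frontal cortex, namely *Adra1b*, *Adrb1* and *Kcnj3*.

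Each receptor gene had close companions in its pattern over the 18 libraries, which is mostly the pattern of the 3 regions. Among 12785 genes, the one most like *Adra2c* was *Tmem158* (Pearson r = 0.993 of log2 CPM, n = 18), at 213 ± 42.3 CPM in WT striatum against 32.98 ± 4.89 in WT cortex, followed by *Bag5* (r = 0.991). *Adrb1* was most like the zinc transporter gene *Slc39a10* (r = 0.990) and *Lpgat1* (0.987), and *Adra1d* most like the growth factor gene *Fgf5* (0.989) and *Efr3a* (0.984). *Adra1b* was followed by *Nudt4* (0.983) and *Plcxd2* (0.979), *Adra1a* by *Pcsk2*, a prohormone convertase gene (0.982), and *Cspg5* (0.980), and *Adra2a* by the RNA-binding protein gene *Elavl2* (0.979) and *Fam155a* (0.977). Libraries share region, animal and lane, so these coefficients are descriptions without a test. Within the family, *Adra1d* and *Adra2a* ran together (r = 0.967), as did *Adra1a* and *Adrb1* (0.952), while *Adra2c* ran against *Adra1d* (−0.938) and *Adra2a* (−0.914).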

How the data were processed

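The deposited files hold raw read counts per Ensembl gene, 1 file per library and without normalization. The authors prepared stranded mRNA libraries (KAPA kit, Illumina HiSeq), trimmed reads with Trim Galore and Cutadapt, kept those of 20 nt or longer, aligned them with STAR to GrCm38r73, kept single-location reads and counted them with HTSeq. Tool versions and the strand setting are not given in the sources used here. Gene symbols, positions and exon lengths came from GENCODE vM21 on the same build, another release than that of the counts, and 36723 of the 38561 genes had a symbol there.

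Genotypes were compared within each region (3 against 3 libraries) with edgeR 4.0.16 in R 4.3.3 (TMM factors, quasi-likelihood test, Benjamini-Hochberg adjustment, calls at an adjusted p under 0.05). Tested were the 17545 genes that reached 10 counts in any library. The effect averaged over regions was tested with limma 3.58.1 on each animal's mean log2 CPM (prior count 2). Region contrasts and the interaction came from 1 edgeR fit of 18 libraries with the animal as a block. The p-values of the genotype comparisons measure the spread between these 6 mice. Those of the region contrasts and the interaction measure the spread of region differences within mice. CPM used TMM factors over all 18 libraries, and levels per kilobase divide by the union of a gene's exons. Likeness was Pearson's r of log2 CPM among genes averaging at least 1, with 2 genes named per receptor. Signalling genes were named when called. Some genes of the lists are not reported here.

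Alternatives were DESeq2 1.42.0, its size factors, other filters, lane, the replicate number as a block, 1 fit of all libraries, summed counts, another prior count and leaving out each library or animal. The receptor genes, the gene and marker lists and the tests were chosen with earlier results of these data known. The fits were tested on simulated counts. Python 3.11.15, with pandas 2.3.3, numpy 2.4.6 and, for plots, matplotlib 3.10.9, served for the tables. Single reads were not analysed here, and positions of reads along a gene cannot be read from these counts.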

Additional observations from a re-analysis of the deposited data

How the results depend on the processing

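The frontal cortex calls of *Adra1b* and *Adrb1* changed more readily than their sizes. In the striatum sizes moved without any call: without 1 library *Adra1b* ran from −0.54 to 0.18 and *Adra1d* from −1.42 to −0.19. In the frontal cortex, 2 receptor genes were called in the reported fit, 0 with lane within the region (adjusted p = 0.0751 for *Adra1b* and 0.0891 for *Adrb1*), in 1 fit of all 18 libraries (0.403 and 0.0883) or in that fit with lane (0.622 and 0.1504), and 0 to 3 without 1 library. In the hippocampus 0 were called, 3 by DESeq2 and 1 (*Adra2c*, adjusted p = 0.0407) in the fit of all 18 libraries, and 0 without 1 library. In the striatum 0 were called under every alternative run. Averaged over regions 2 were called, 1 from summed counts (*Adrb1*, adjusted p = 0.0439), 0 without striatum or without hippocampus (both added after the data were seen), and 0 to 2 without 1 animal. Summed counts, which weight regions by their counts, gave *Adra1b* a difference of 0.37 in place of −0.20. Without 1 library, the region contrasts called 3 to 4 (mutant hippocampus against cortex), 4 to 5 (mutant striatum against hippocampus) and 5 to 6 (WT striatum against hippocampus), and the interaction 0. No called value changed sign. Lane could not be fitted within the striatum.

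Same-numbered libraries of both genotypes are not known to share a litter or day, and after removal of the group means only 2 of 3 such pairs in the frontal cortex and hippocampus and 1 of 3 in the striatum correlated above 0.1. Each frontal cortex library correlated best with its own number (6 of 6), a hint from the data only. Y-linked transcripts marked 1 male per genotype, replicate 2 of both in cortex and hippocampus, and WT replicate 3 and mutant replicate 2 in striatum. With the replicate number as a block, 2 receptor genes were called in cortex, 0 in striatum, 0 in hippocampus and 1 averaged over regions (*Adra2c*, *Adrb1* having an adjusted p of 0.0612).

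Over all genes, 306 were called in cortex, 690 by DESeq2, 544 without the filter, 665 with the replicate block, 29 with lane, 176 and 95 in the fits of all libraries, and 11 to 825 without 1 library. The striatum had 5 calls (DESeq2 488, no filter 65, block 3, all libraries 54 and 8), the hippocampus 3 (DESeq2 220, block 9, all libraries 205 and 160) and the mean of regions 284 (7 to 547 without 1 animal, 23 without striatum, 147 without hippocampus). The interaction had 0 calls (DESeq2 155, no filter 18, no animal block 2, 0 to 25 without 1 library). The cause of these differences was not tested. Levels per kilobase by the longest transcript raised *Adra1a* and *Adrb1* in every group and left the other 4 within their spread. Genotype differences of *Adra1b* and *Adra1d* in striatum had the widest errors of the 6.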
